A study of Mus musculus with 12 samples.

Results

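Catalase, the superoxide dismutases, 2 glutathione peroxidases, 2 peroxiredoxins and 2 metallothioneins were followed as 10 genes through 12 mouse kidney RNA-seq libraries. They were taken by symbol from a count table of 32047 genes, whatever their values, and all 10 were found and passed the filter on low counts in every comparison. The libraries form 3 groups of 4. The first, AKI_A_FGF23_R176QR179Q, is called the FGF23 variant group here: its mice overexpressed FGF23, a phosphate-lowering hormone from bone, carrying the substitutions named in the label, and were given acute kidney injury by rhabdomyolysis (breakdown of skeletal muscle) 3 weeks afterwards. The second, AKI_A_mcherry, bears the name of a red fluorescent protein and is read as injured from its AKI label. The third, NC, is not expanded in the labels and carries no AKI label. Strain, sex, age, the vector and its promoter, the number of animals and the time from injury to collection are not given in the labels, and the p-values cover no more than the spread among the libraries of a group, which may be technical. The contrast of AKI_A_mcherry with NC holds injury together with whatever else differed between those groups, and no FGF23 variant group without injury was analysed here.

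Superoxide dismutases turn superoxide into hydrogen peroxide, which catalase, glutathione peroxidases and peroxiredoxins then reduce. Metallothioneins are small cysteine-rich proteins that bind zinc and copper and also react with oxidants. In the kidney the proximal tubule is rich in mitochondria and peroxisomes, both sources of peroxide, and in rhabdomyolysis it takes up heme protein released from muscle, which adds iron and heme to that load.

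Library totals were 55324078 to 70638283 counts. Fgf23 had 320 to 517 counts in the FGF23 variant libraries and 0 in the 8 others, which matches the labels. The scaling factors by TMM (trimmed mean of M values) ranged over 1.11 to 1.13 for the FGF23 variant, 0.901 to 1.03 for AKI_A_mcherry and 0.888 to 0.925 for NC. Levels below are in CPM, counts scaled to a common library size with these factors. The deposited FPKM values scale fragments by gene length and library total. Their sums were 387906 to 420382 for the FGF23 variant, 443489 to 514461 for AKI_A_mcherry and 452130 to 483963 for NC. Mitochondrial genes (symbol prefix mt-) took 10.9% to 13.1%, 13.8% to 17.1% and 15.3% to 16.9% of counts in the same order. Both were lower in all FGF23 variant libraries than in the 8 others, and their part in the fold changes was not tested. Summed markers of injured tubules (7 genes, among them Havcr1 and Lcn2) spanned 7306 to 27223 CPM for the FGF23 variant, 37101 to 41515 for AKI_A_mcherry and 934 to 1055 for NC. Summed markers of proximal tubule segments S1 and S2 (8 genes) were 1160 to 2765, 838 to 1199 and 6837 to 10866 CPM in the same order of groups. No marker of these lists was at 0 in all libraries of a group. FGF23 variant library 1 stood apart within its group, with the lowest injured-tubule sum, 7306 CPM against 16818 to 27223 in the other 3, and the highest S1 and S2 sum. In whole kidney RNA, fewer cells of a type and less RNA per cell cannot be told apart.

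Between AKI_A_mcherry and NC, 4 of the 10 genes were higher (Prdx1, Prdx6, Mt1 and Mt2) and 5 were lower (Cat, Sod2, Sod3, Gpx1 and Gpx3), by edgeR's quasi-likelihood test at an adjusted p under 0.05. Over all 18724 genes tested, 27.2% were higher and 26.0% lower, so 53.1% passed in either direction. The groups did not overlap for 9 of the 10 genes, against 51.3% of all genes. Between the FGF23 variant group and AKI_A_mcherry, none of the 10 was higher and 4 were lower (Gpx1, Prdx1, Mt1 and Mt2), against 11.7% higher, 11.4% lower and 23.1% in either direction of 18824 genes. The groups did not overlap for those 4, against 28.4% of all genes. No gene of the 10 was higher at an unadjusted p under 0.05 either, and DESeq2 and limma-voom also called 0 higher. With library totals as the only scaling 2 were called higher, Cat (log2 0.61, adjusted p = 0.0362) and Sod2 (log2 0.41, adjusted p = 0.0137). Against NC, the FGF23 variant group had the same 4 genes higher and 6 lower, Sod1 included, against 21.7% higher, 20.6% lower and 42.3% in either direction of 19005 genes. All 10 were without overlap, against 41.7% of all genes. The 3 comparisons share libraries and are not independent of each other.

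**Figure D1:**
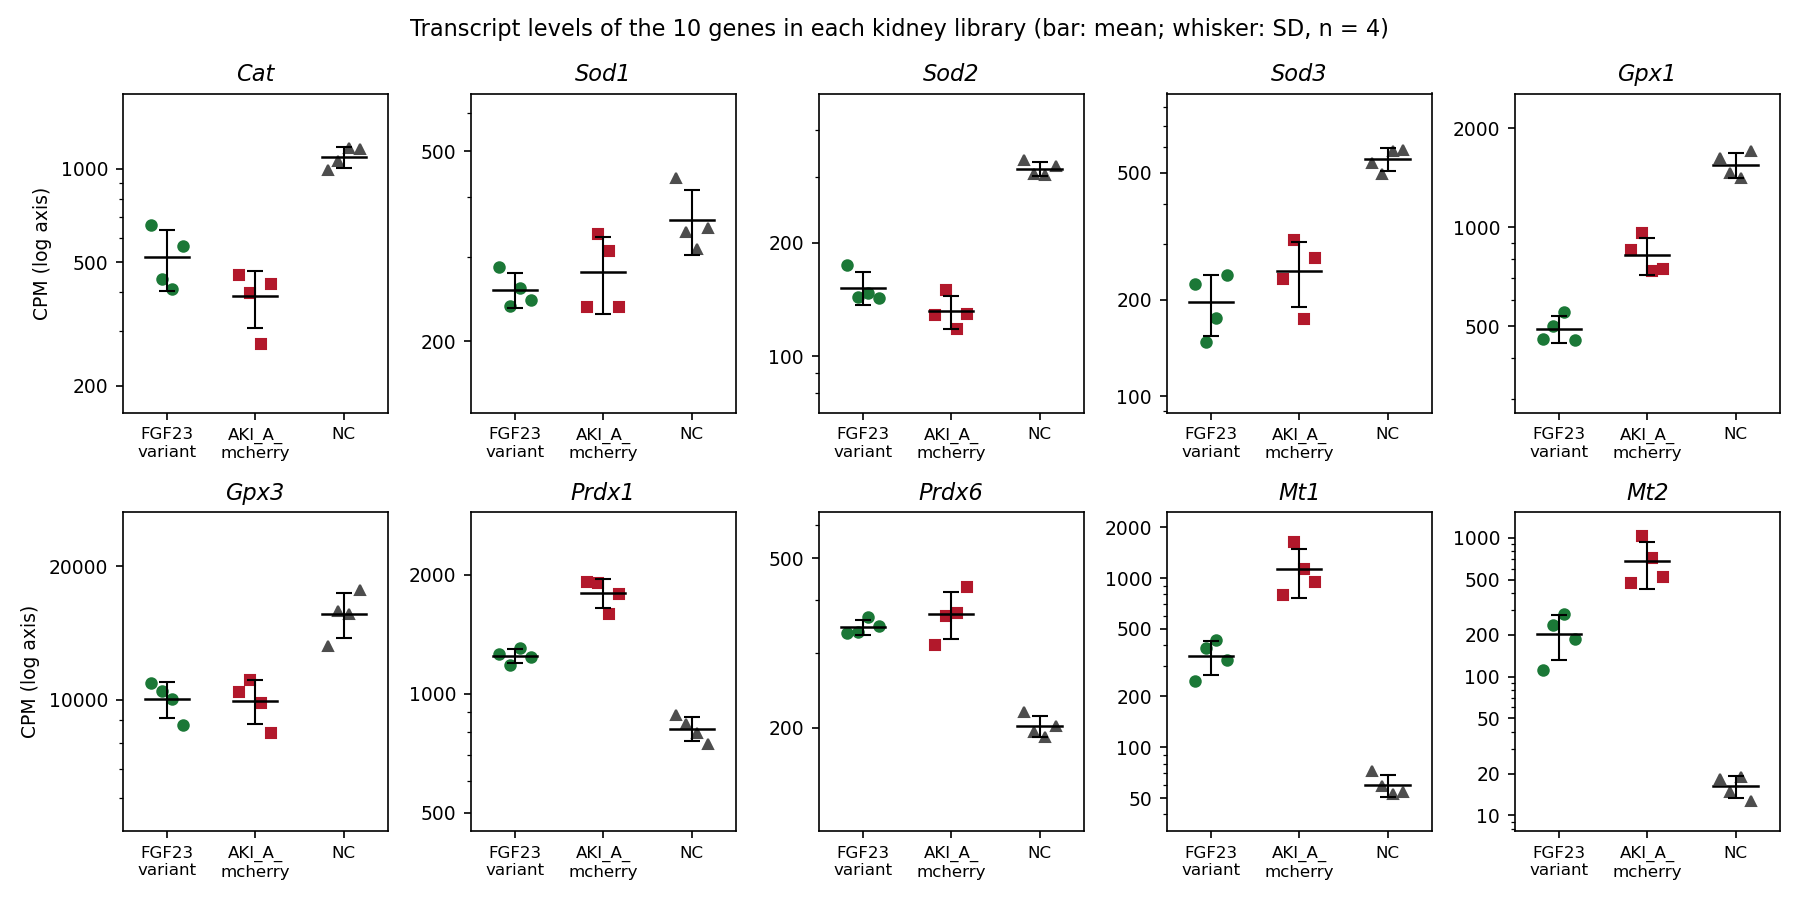
Level of each of the 10 genes (CPM, log axis) in every library, with FGF23 variant, AKI_A_mcherry and NC from left to right; points are libraries, bars the mean and whiskers the SD of 4 libraries. Mt1 and Mt2 lie highest in AKI_A_mcherry, lowest in NC and between them in the FGF23 variant group, while Cat, Sod2, Sod3, Gpx1 and Gpx3 lie highest in NC.

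The metallothioneins showed the widest range of the 10 genes. Mt1 (ENSMUSG00000031765) had 248, 386, 431 and 327 CPM in the FGF23 variant libraries, 796, 1639, 1133 and 944 in the AKI_A_mcherry libraries, and 72.0, 59.0, 52.9 and 54.1 in the NC libraries. Mt2 (ENSMUSG00000031762) had 112, 234, 282 and 187 CPM in the FGF23 variant libraries, 469, 1022, 710 and 518 in AKI_A_mcherry, and 18.2, 14.7, 18.9 and 12.8 in NC. The 3 groups did not overlap for either gene. Within the FGF23 variant group library 1 was lowest for both, and within AKI_A_mcherry library 2 was highest for both. Mt1 was 3.27-fold lower in the FGF23 variant group than in AKI_A_mcherry, a log2 fold change of -1.71 ± 0.24 (SE, adjusted p = 0.00161). Mt2 was 3.37-fold lower, -1.75 ± 0.31 (adjusted p = 0.00448). Without FGF23 variant library 1 the log2 fold changes were -1.58 for Mt1 and -1.55 for Mt2, and without AKI_A_mcherry library 2 they were -1.47 and -1.49, all past the threshold. Gm45774, an antisense gene that overlaps Mt2, had 25 to 1540 counts, at most 7.39% of those of Mt2 in a library. The injured-tubule sum followed the same order of groups, and its part in these differences was not tested.

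Against NC the 2 genes were far higher in both injured groups. In AKI_A_mcherry Mt1 was 19.0-fold higher than in NC (log2 4.25 ± 0.24, adjusted p = 2.65e-07) and Mt2 42.3-fold higher (log2 5.40 ± 0.29, adjusted p = 1.97e-07). In the FGF23 variant group Mt1 was 5.78-fold higher than in NC (log2 2.53 ± 0.17, adjusted p = 2.55e-06) and Mt2 12.5-fold higher (log2 3.64 ± 0.27, adjusted p = 4.11e-06). By size of rise among all genes tested, Mt2 ranked 148 and Mt1 228 of 18724 in AKI_A_mcherry against NC. The log2 ratio of Mt1 to Mt2 counts within a library does not depend on library scaling. It averaged 0.82 ± 0.23 in the FGF23 variant group, 0.75 ± 0.09 in AKI_A_mcherry and 1.89 ± 0.27 in NC (SD, n = 4 each). The lower ratio in each injured group than in NC passed an exact two-sided permutation test (p = 0.0286, the smallest that 70 assignments allow, adjusted p = 0.0321 over 9 ratio tests). Between the injured groups the ratio differed by 0.08 with overlapping libraries (exact permutation p = 0.714).

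The windows before the RefSeq starts of Mt1 and Mt2 are shown because these 2 neighbouring genes moved together, and that of Prdx1 because it shared their directions. Each runs 5′ to 3′ on the plus strand of build GRCm38.p6, from 250 bases before the start to 30 bases from it, and capitals mark the motif matches. Mt1 lies at chr8:94178839-94179118, Mt2 at chr8:94172368-94172647 and Prdx1 at chr4:116685349-116685628.
Mt1: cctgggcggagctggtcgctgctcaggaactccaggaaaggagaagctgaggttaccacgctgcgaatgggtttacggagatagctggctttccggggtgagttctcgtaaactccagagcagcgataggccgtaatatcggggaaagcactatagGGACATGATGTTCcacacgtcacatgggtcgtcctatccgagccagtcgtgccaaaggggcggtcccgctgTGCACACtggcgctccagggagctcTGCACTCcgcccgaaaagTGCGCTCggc
Mt2: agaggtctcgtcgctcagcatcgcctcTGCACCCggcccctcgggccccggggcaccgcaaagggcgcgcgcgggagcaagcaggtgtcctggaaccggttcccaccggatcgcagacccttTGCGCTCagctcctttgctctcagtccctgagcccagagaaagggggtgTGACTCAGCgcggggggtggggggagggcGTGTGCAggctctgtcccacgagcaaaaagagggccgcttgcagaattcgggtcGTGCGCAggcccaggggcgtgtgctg
Prdx1: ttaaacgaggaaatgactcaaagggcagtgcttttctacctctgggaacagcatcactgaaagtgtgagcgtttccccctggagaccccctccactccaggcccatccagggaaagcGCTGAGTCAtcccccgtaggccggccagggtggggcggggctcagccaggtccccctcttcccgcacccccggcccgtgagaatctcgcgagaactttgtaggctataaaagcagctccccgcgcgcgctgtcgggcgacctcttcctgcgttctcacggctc
Searched on both strands were the metal response element core, read by the zinc sensor MTF-1, as TGCACNC and TGCGCNC, the antioxidant response element as TGACNNNGC, and the glucocorticoid response element as GNACA and TGTNC with any 3 letters between them. No marked match overlaps another. Mt1 held 3 metal matches and Mt2 4. Of all 32851 windows of this length in the RefSeq table, 24.1% held at least 1 metal match and 1.73% at least 3. Mt1 also held a glucocorticoid match 94 to 82 bases before its start, a motif in 0.435% of windows, and Mt2 an antioxidant match 79 to 71 bases before its start, a motif in 11.5%. Prdx1 and Sod1 each held 1 antioxidant match, and the windows of Cat, Sod2, Gpx1 and Gpx3 held none of these letters. The 30 bases past the start were added after matches there had been seen. In the 250 upstream bases alone Mt1 held 1 metal match and Mt2 3, against 21.4% of windows with at least 1 and 1.26% with at least 3. A match is a run of letters and not a tested site, and bases beyond each window or around other starts of a gene were not searched. The table held 8 of the 10 genes, and Sod3 and Prdx6 are not among them.

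The superoxide dismutases differ by where they work. Sod2 (ENSMUSG00000006818), the manganese enzyme of mitochondria, had 175, 144, 147 and 143 CPM in the FGF23 variant libraries, 129, 150, 118 and 129 in AKI_A_mcherry, and 332, 305, 303 and 319 in NC. Sod3 (ENSMUSG00000072941), the secreted copper and zinc enzyme, had 224, 148, 175 and 239 CPM in the FGF23 variant libraries, 232, 308, 175 and 271 in AKI_A_mcherry, and 534, 497, 586 and 589 in NC. For both genes the injured groups overlapped each other and lay wholly below NC. Sod2 was 2.39-fold lower in AKI_A_mcherry than in NC (log2 -1.26 ± 0.10, adjusted p = 3.29e-06) and 2.09-fold lower in the FGF23 variant group than in NC (adjusted p = 8.19e-06). Sod3 was 2.23-fold lower in AKI_A_mcherry (adjusted p = 0.000189) and 2.84-fold lower in the FGF23 variant group (adjusted p = 2.49e-05), each against NC.

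Sod1 (ENSMUSG00000022982), the abundant copper and zinc enzyme of the cytosol, had 286, 237, 258 and 244 CPM in the FGF23 variant libraries, 236, 336, 309 and 236 in AKI_A_mcherry, and 440, 338, 312 and 345 in NC. AKI_A_mcherry overlapped both other groups, while the FGF23 variant libraries all lay below NC. Its log2 fold change was -0.36 ± 0.15 in AKI_A_mcherry over NC (adjusted p = 0.0721) and -0.50 ± 0.12 in the FGF23 variant group over NC (adjusted p = 0.00526). The first passed under 4 of 17 alternative settings: DESeq2 (adjusted p = 0.0431), limma-voom (0.0108), 1 fit of all 12 libraries (0.0338) and without AKI_A_mcherry library 2 (0.0267). The second was not called with library totals as the only scaling (log2 -0.17, adjusted p = 0.243). Reads of Scaf4, which overlaps Sod1 on the opposite strand, numbered 1398 to 2729 a library against 13487 to 24265 for Sod1, and whether counting used the strand was not stated.

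None of the dismutases passed the test between the FGF23 variant group and AKI_A_mcherry. The log2 fold changes were 0.20 for Sod2, with a 95% interval of -0.04 to 0.43, -0.14 for Sod1, with -0.44 to 0.16, and -0.34 for Sod3, with -0.77 to 0.08. The log2 ratio of Sod2 to Sod1 counts averaged -0.75 ± 0.05 in the FGF23 variant group, -1.07 ± 0.25 in AKI_A_mcherry and -0.18 ± 0.16 in NC. These ranges did not overlap, and each pair of groups differed (exact permutation p = 0.0286, adjusted p = 0.0321). The difference between the injured groups was 0.32. Without any 1 of the FGF23 variant libraries it was 0.30 to 0.34, still without overlap, with an exact permutation p of 0.0857 to 0.114 over the fewer assignments. Ccs, the chaperone that gives Sod1 its copper, averaged 42.8 CPM in the FGF23 variant group, 38.4 in AKI_A_mcherry and 80.8 in NC, and was lower in AKI_A_mcherry than in NC (log2 -1.07 ± 0.12, adjusted p = 3.12e-05).

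**Figure D2:**
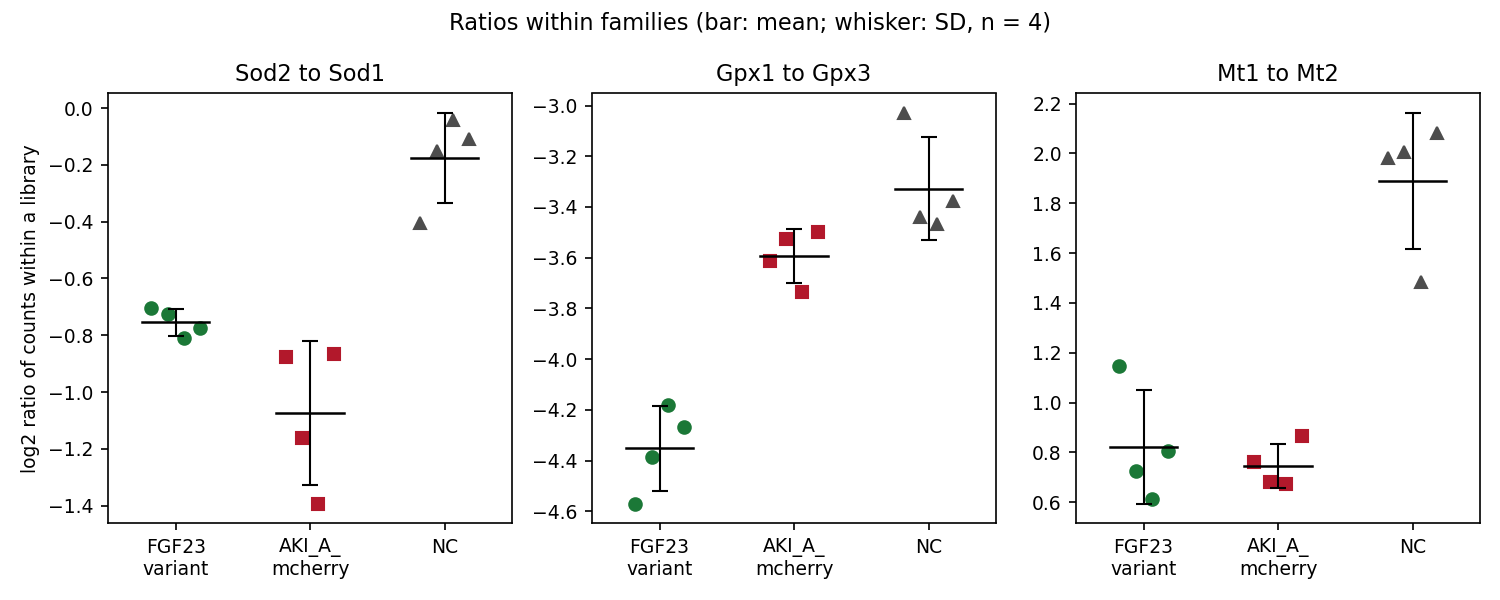
Log2 ratio of the counts of 2 genes of one family within a library, for FGF23 variant, AKI_A_mcherry and NC from left to right; points are libraries, bars the mean and whiskers the SD of 4 libraries. Sod2 to Sod1 averages -0.75, -1.07 and -0.18, Gpx1 to Gpx3 -4.35, -3.59 and -3.33, and Mt1 to Mt2 0.82, 0.75 and 1.89.

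Catalase, the peroxisomal enzyme that splits hydrogen peroxide, was lower in both injured groups than in NC. Cat (ENSMUSG00000027187) had 661, 443, 411 and 562 CPM in the FGF23 variant libraries, 456, 399, 272 and 425 in AKI_A_mcherry, and 989, 1057, 1167 and 1158 in NC. The injured groups overlapped each other and not NC, and FGF23 variant library 1 was highest among the injured libraries. Cat was 2.81-fold lower in AKI_A_mcherry than in NC (log2 -1.49 ± 0.16, adjusted p = 2.58e-05) and 2.13-fold lower in the FGF23 variant group than in NC (log2 -1.09 ± 0.15, adjusted p = 0.000192). Between the FGF23 variant group and AKI_A_mcherry its log2 fold change was 0.40 ± 0.19 (adjusted p = 0.146). With library totals as the only scaling that value was 0.61 and passed, while under that scaling the median of all genes moved to 0.21 and the calls over all genes to 4060 higher and 1035 lower, against 2199 and 2148 with TMM. Against NC the FGF23 variant group then had 7829 genes higher and 2096 lower, against 4123 and 3912. The S1 and S2 sum was likewise highest in NC and, among injured libraries, in FGF23 variant library 1; its part in the level of Cat was not tested.

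The 2 glutathione peroxidases, both selenoproteins, parted from each other. Gpx3 (ENSMUSG00000018339), the secreted form that proximal tubules supply to plasma, had 10888, 10488, 10035 and 8760 CPM in the FGF23 variant libraries, 10429, 11084, 9839 and 8421 in AKI_A_mcherry, and 13242, 15859, 15612 and 17668 in NC. It alone took 0.859% to 1.57% of all counts in a library. The injured groups overlapped almost fully and lay below NC. Gpx3 was 1.56-fold lower in AKI_A_mcherry than in NC (log2 -0.64 ± 0.15, adjusted p = 0.00363) and 1.57-fold lower in the FGF23 variant group than in NC (adjusted p = 0.000962). Between the FGF23 variant group and AKI_A_mcherry the fold ratio was 0.999, with a 95% interval of 0.815 to 1.22.

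Gpx1 (ENSMUSG00000063856), the form of cytosol and mitochondria, had 459, 502, 553 and 455 CPM in the FGF23 variant libraries, 853, 963, 738 and 746 in AKI_A_mcherry, and 1622, 1462, 1414 and 1704 in NC. The 3 groups did not overlap, with the FGF23 variant group lowest. It was 1.69-fold lower in the FGF23 variant group than in AKI_A_mcherry (log2 -0.76 ± 0.12, adjusted p = 0.00270), 1.87-fold lower in AKI_A_mcherry than in NC (log2 -0.90 ± 0.12, adjusted p = 0.000146), and 3.18-fold lower in the FGF23 variant group than in NC (log2 -1.67 ± 0.10, adjusted p = 1.12e-06). Gpx1 was thus the one gene of the 10 that was lower and past the threshold in all 3 comparisons. The log2 ratio of Gpx1 to Gpx3 counts averaged -4.35 ± 0.17 in the FGF23 variant group, -3.59 ± 0.11 in AKI_A_mcherry and -3.33 ± 0.20 in NC. Each pair of groups differed (exact permutation p = 0.0286, adjusted p = 0.0321). The difference between AKI_A_mcherry and NC was -0.27. Without any 1 of the AKI_A_mcherry libraries it was -0.30 to -0.22, still without overlap, and without NC library 1 it was -0.17; the exact permutation p over the fewer assignments was then 0.0571 to 0.0857.

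Prdx1 and Prdx6, peroxiredoxins that reduce peroxides through a reactive cysteine, were higher in both injured groups than in NC. Prdx1 (ENSMUSG00000028691), a cytosolic enzyme recycled by thioredoxin, had 1260, 1179, 1306 and 1235 CPM in the FGF23 variant libraries, 1920, 1904, 1587 and 1786 in AKI_A_mcherry, and 882, 836, 793 and 747 in NC. The 3 groups did not overlap, and the FGF23 variant group lay between the others. Prdx1 was 1.46-fold lower in the FGF23 variant group than in AKI_A_mcherry (log2 -0.55 ± 0.10, adjusted p = 0.00565), 2.22-fold higher in AKI_A_mcherry than in NC (log2 1.15 ± 0.11, adjusted p = 1.34e-05) and 1.51-fold higher in the FGF23 variant kidneys than in NC (adjusted p = 0.000261). The difference between the injured groups passed under 16 of 17 alternative settings and missed with the replicate number as a block (adjusted p = 0.0692). Transcripts of the pseudogenes Gm21399 and Gm7204 are near-identical to Prdx1 over 597 bases, and their counts were at most 1.01% of those of Prdx1.

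Prdx6 (ENSMUSG00000026701), which uses glutathione and also acts on phospholipids, had 334, 336, 364 and 346 CPM in the FGF23 variant libraries, 313, 366, 372 and 428 in AKI_A_mcherry, and 218, 196, 191 and 203 in NC. The FGF23 variant libraries fell inside the range of AKI_A_mcherry, and both groups lay above NC. Prdx6 was 1.84-fold higher in AKI_A_mcherry than in NC (log2 0.88 ± 0.11, adjusted p = 7.65e-05) and 1.69-fold higher in the FGF23 variant kidneys than in NC (adjusted p = 2.83e-05). Between the FGF23 variant group and AKI_A_mcherry its log2 fold change was -0.12, with a 95% interval of -0.35 to 0.12.

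**Figure D3:**
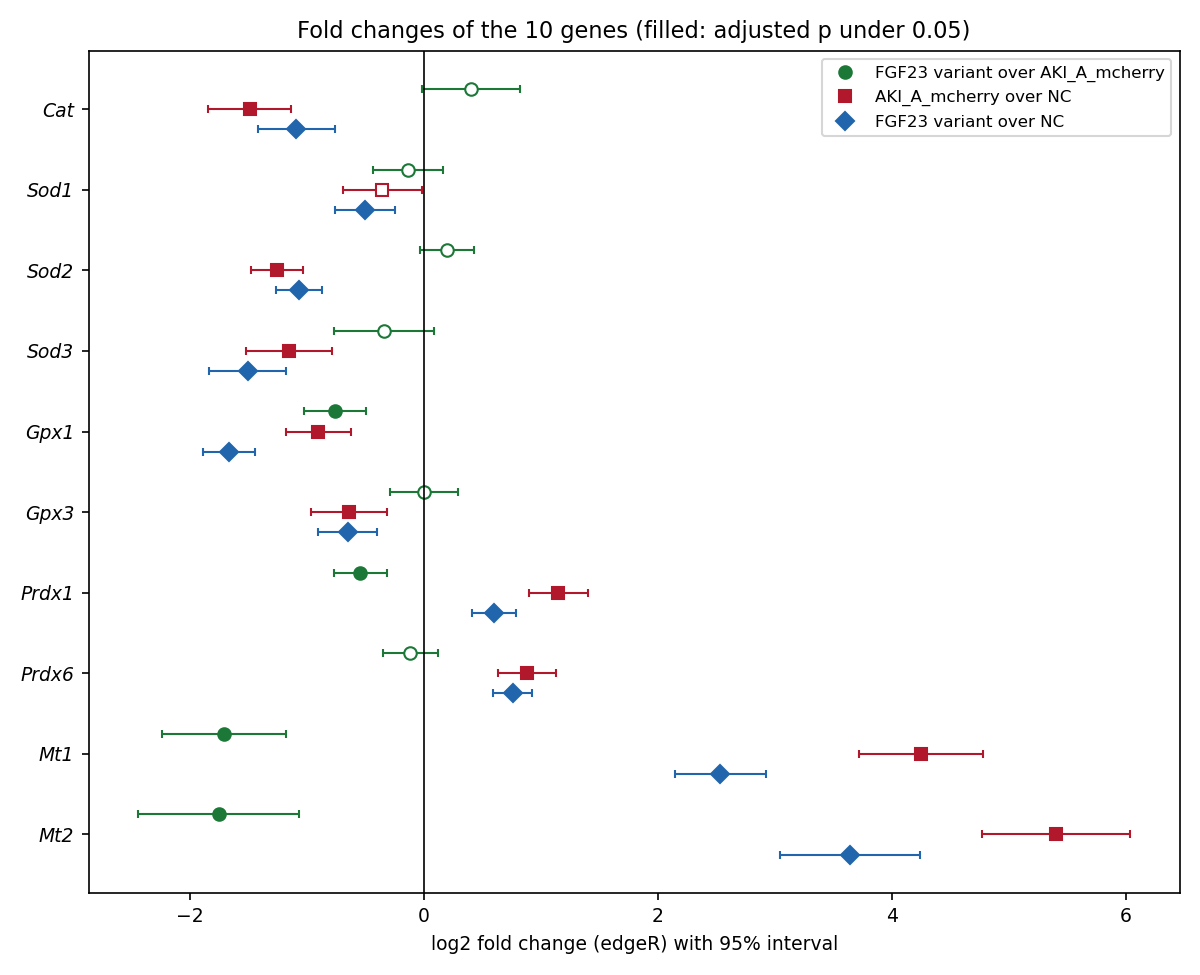
Log2 fold change of each of the 10 genes (edgeR) with its 95% interval in the 3 comparisons, the FGF23 variant group over AKI_A_mcherry uppermost for each gene; filled symbols passed the adjusted p threshold of 0.05. Filled symbols for the FGF23 variant group over AKI_A_mcherry are Gpx1 (-0.76), Prdx1 (-0.55), Mt1 (-1.71) and Mt2 (-1.75).

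Levels of different genes were compared per gene length with the deposited FPKM values, which scale fragments by gene length and library total and use no TMM factors. The gene lengths behind these values were not given and not checked, and the order of the genes depends on them. In NC, for example, Sod2 averaged 315 CPM and Prdx6 202, while by FPKM Sod2 lay below Prdx6. In the FGF23 variant group Gpx3 stood highest, at 5716 ± 514 FPKM (SD, n = 4), followed by Prdx1 at 422 ± 20.2, Mt2 at 357 ± 126, Gpx1 at 352 ± 32.7, Mt1 at 288 ± 65.2 and Cat at 205 ± 46.1. Prdx6, Sod1 and Sod3 followed at 74.1 ± 3.26, 66.7 ± 5.78 and 54.3 ± 11.9 FPKM, and Sod2 was lowest at 15.7 ± 1.64. From Prdx1 to Cat, each neighbour in this order overlapped the next.

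In AKI_A_mcherry the metallothioneins came directly after Gpx3, which had 4941 ± 418 FPKM. Mt2 had 1031 ± 316 and Mt1 808 ± 212 FPKM, overlapping each other and above Prdx1 at 533 ± 39.0 and Gpx1 at 515 ± 36.9. Cat followed at 134 ± 28.2 FPKM, then Prdx6, Sod1 and Sod3 between 59 and 70 on average with overlapping libraries, and Sod2 at 11.8 ± 0.531. In NC the order was Gpx3 at 7158 ± 799, Gpx1 at 894 ± 62.2, Cat at 348 ± 26.2, Prdx1 at 223 ± 18.2, Sod3 at 123 ± 8.28 and Sod1 at 75.2 ± 11.4 FPKM. Mt1 at 39.7 ± 5.84 and Prdx6 at 34.9 ± 1.81 overlapped, as did Sod2 at 26.2 ± 0.885 and Mt2 at 22.8 ± 4.25, which were lowest. Mt2 thus stood last of the 10 by FPKM in NC and second in AKI_A_mcherry. By mean CPM it was also lowest in NC, at 16.1. In AKI_A_mcherry its mean of 680 CPM lay below Gpx3 at 9943, Prdx1 at 1799, Mt1 at 1128 and Gpx1 at 825. Before scaling by gene length, Mt1 had more counts than Mt2 in every library.

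**Figure D4:**
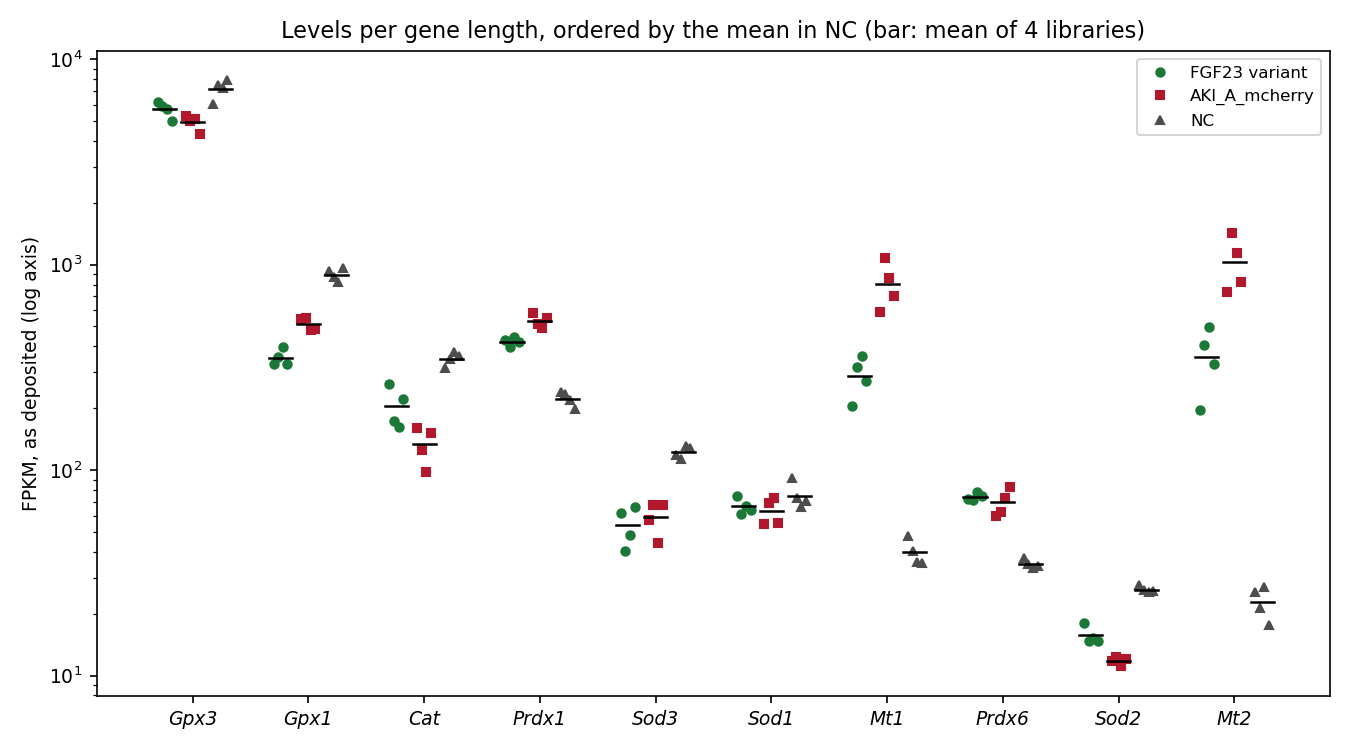
Deposited FPKM of the 10 genes in every library (log axis), ordered by the NC mean, with FGF23 variant, AKI_A_mcherry and NC from left to right for each gene; bars are means of 4 libraries. Mt2 averages 357, 1031 and 22.8 FPKM in these groups, and Gpx3 stands highest in all of them.

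The genes that act next to these enzymes were counted by lists. Each count is read against all genes tested, of which 11.7% were higher and 11.4% lower in the FGF23 variant group against AKI_A_mcherry, and 27.2% higher and 26.0% lower in AKI_A_mcherry against NC. The median log2 fold change of all genes was 0.01 in the first of these comparisons and -0.0026 in the second. Of 8 other peroxiredoxin and glutathione peroxidase genes, 0 were higher (11.7% of all genes) and 2 lower (11.4%) in the FGF23 variant group than in AKI_A_mcherry, with a median log2 fold change of -0.32. Prdx5, a peroxiredoxin of mitochondria, peroxisomes and cytosol, had 447 to 509 CPM in the FGF23 variant group, 757 to 1119 in AKI_A_mcherry and 893 to 1302 in NC. It was 1.89-fold lower in the FGF23 variant group than in AKI_A_mcherry (adjusted p = 0.00196) with no overlap between these groups. Gpx2, the other gene called, averaged 0.0699 CPM in the FGF23 variant group and 0.815 in AKI_A_mcherry. In AKI_A_mcherry against NC 3 of the 8 were higher (27.2% of all genes) and 1 lower (26.0%), with a median of -0.09. Gpx8, a peroxidase of the endoplasmic reticulum, was 2.05-fold higher (adjusted p = 0.000238) and Prdx3, the mitochondrial peroxiredoxin, 1.51-fold lower (adjusted p = 0.000575). Prdx2 and Gpx4 passed in neither comparison, with log2 fold changes of -0.36 and -0.18 in the FGF23 variant group over AKI_A_mcherry and 0.07 and -0.27 in AKI_A_mcherry over NC.

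Of 16 genes of the thioredoxin, glutaredoxin and glutathione systems, 1 was higher and 4 lower in the FGF23 variant group than in AKI_A_mcherry, beside 11.7% and 11.4% of all genes. Against NC, AKI_A_mcherry had 9 higher and 3 lower, beside 27.2% and 26.0%. The medians were -0.27 in the first comparison and 0.52 in the second. Srxn1, which repairs over-oxidised peroxiredoxins, had 784 to 831 CPM in the FGF23 variant group, 579 to 952 in AKI_A_mcherry and 54.9 to 67.9 in NC. It was 13.7-fold higher in AKI_A_mcherry than in NC (adjusted p = 1.05e-07), and between the injured groups its log2 fold change was 0.01 (adjusted p = 0.969). Txnrd1, the reductase of cytosolic thioredoxin, was 3.40-fold higher in AKI_A_mcherry than in NC and did not pass between the injured groups (log2 -0.29, adjusted p = 0.0536). Glrx, a glutaredoxin, was 1.86-fold lower in the FGF23 variant group than in AKI_A_mcherry (adjusted p = 0.000969), and G6pdx, which supplies NADPH, 1.33-fold higher (adjusted p = 0.0250). Gss, the last enzyme of glutathione synthesis, was 1.60-fold lower in AKI_A_mcherry than in NC (adjusted p = 0.00287).

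Of 12 NRF2 targets, a list that shares Srxn1, Txnrd1, Gclc and Gclm with the one before, 2 were higher and 3 lower in the FGF23 variant group than in AKI_A_mcherry (all genes 11.7% and 11.4%, list median -0.18). In AKI_A_mcherry against NC 9 were higher and 0 lower (all genes 27.2% and 26.0%, list median 1.16). The 2 higher genes were Abcc4, an efflux pump, at 2.65-fold (adjusted p = 0.000958), and Slc7a11, the cystine importer, with 53.7 to 74.1 CPM in the FGF23 variant group, 23.8 to 32.6 in AKI_A_mcherry and at most 0.242 in NC. Hmox1, which breaks down heme, had 175 to 245 CPM in the FGF23 variant group, 407 to 854 in AKI_A_mcherry and 27.1 to 33.3 in NC. It was 3.29-fold lower in the FGF23 variant group than in AKI_A_mcherry (adjusted p = 0.000868). The NF-kB list had 1 higher and 1 lower of 10 in the FGF23 variant group against AKI_A_mcherry, close to the 11.7% and 11.4% of all genes, with a median of -0.19. For AKI_A_mcherry against NC it had 9 higher and 0 lower, beside 27.2% and 26.0% of all genes, with a median of 1.21. Icam1, an adhesion receptor, was 1.33-fold higher in the FGF23 variant kidneys than in AKI_A_mcherry (adjusted p = 0.0351), and Cxcl1, a neutrophil chemokine, 29.4-fold higher in AKI_A_mcherry than in NC (adjusted p = 1.40e-07).

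Of 8 tested glucocorticoid response genes, 1 was higher and 1 lower in the FGF23 variant group than in AKI_A_mcherry, close to the 11.7% and 11.4% of all genes, with a median of -0.20. In AKI_A_mcherry against NC 5 were higher and 1 lower, beside 27.2% and 26.0% of all genes, with a median of 0.76. The lower one was Klf9, 2.31-fold (adjusted p = 8.54e-06), and in the FGF23 variant kidneys it was 1.48-fold higher than in AKI_A_mcherry (adjusted p = 0.00725). Cdkn1a, also a p53 target, was 46.4-fold higher in AKI_A_mcherry than in NC (adjusted p = 9.92e-08), and Sgk1, a kinase, 1.36-fold lower in the FGF23 variant group than in AKI_A_mcherry (adjusted p = 0.0338).

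Of 17 metal supply genes tested, 3 were higher and 3 lower in the FGF23 variant group than in AKI_A_mcherry (all genes 11.7% and 11.4%, list median 0.14). Between AKI_A_mcherry and NC, 7 were higher and 9 lower in AKI_A_mcherry (all genes 27.2% and 26.0%, list median -0.28). Mtf1, the zinc sensor that drives metallothionein genes, had 17.5 to 22.0 CPM in the FGF23 variant group, 20.4 to 26.0 in AKI_A_mcherry and 13.3 to 18.9 in NC. It was 1.46-fold higher in AKI_A_mcherry than in NC (adjusted p = 0.00631), while between the injured groups its log2 fold change was -0.26 (adjusted p = 0.144). Slc39a5, a zinc importer, had 12.3 to 27.6 CPM in the FGF23 variant group, 2.00 to 3.15 in AKI_A_mcherry and 28.7 to 33.6 in NC. It was 6.99-fold higher in the FGF23 variant kidneys than in AKI_A_mcherry (adjusted p = 0.000348) and 12.1-fold lower in AKI_A_mcherry than in NC (adjusted p = 6.58e-08). Cp, the copper-carrying ferroxidase, was 2.96-fold higher in AKI_A_mcherry than in NC (adjusted p = 1.39e-05), and Atox1, a copper chaperone, 1.74-fold lower in the FGF23 variant group than in AKI_A_mcherry (adjusted p = 0.00869). Mt3, another metallothionein, averaged 3.20, 1.89 and 0.300 CPM in the FGF23 variant, AKI_A_mcherry and NC groups, and its log2 fold change of 0.74 between the injured groups did not pass (adjusted p = 0.129).

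Selenoprotein supply had 3 higher and 1 lower of 11 in the FGF23 variant group against AKI_A_mcherry, beside 11.7% and 11.4% of all genes, with a median of 0.17. In AKI_A_mcherry against NC it had 2 higher and 4 lower, beside 27.2% and 26.0%, with a median of -0.22. The lower one between the injured groups was Selenop, the plasma selenium carrier, with 813, 758, 832 and 740 CPM in the FGF23 variant libraries, 4414, 3450, 1264 and 3226 in AKI_A_mcherry, and 2970, 3120, 3318 and 3026 in NC. All FGF23 variant libraries lay below all others, and AKI_A_mcherry library 3 lay far below the rest of its group. Selenop was 3.97-fold lower in the FGF23 variant group than in AKI_A_mcherry (adjusted p = 0.00237), and did not pass in AKI_A_mcherry against NC (adjusted p = 0.994). Lrp2, the receptor megalin that takes up Selenop, was 2.75-fold higher in the FGF23 variant kidneys than in AKI_A_mcherry (adjusted p = 0.0140) and 9.59-fold lower in AKI_A_mcherry than in NC (adjusted p = 3.62e-06). Lrp8, another Selenop receptor, was 9.35-fold higher in AKI_A_mcherry than in NC (adjusted p = 1.06e-06).

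Among sources of superoxide and hydrogen peroxide, 8 genes were higher and 2 lower of 18 tested in the FGF23 variant group against AKI_A_mcherry (all genes 11.7% and 11.4%, list median 0.32). Of 19 tested in AKI_A_mcherry against NC, 4 were higher and 11 lower (all genes 27.2% and 26.0%, list median -1.29). Hao2, a peroxisomal hydroxyacid oxidase, had 169 to 370 CPM in the FGF23 variant group, 14.0 to 18.3 in AKI_A_mcherry and 192 to 292 in NC. It was 14.7-fold higher in the FGF23 variant kidneys than in AKI_A_mcherry (adjusted p = 4.70e-05) and 14.9-fold lower in AKI_A_mcherry than in NC (adjusted p = 5.39e-08). Cyba, a subunit of NADPH oxidases, was 1.47-fold lower in the FGF23 variant group than in AKI_A_mcherry (adjusted p = 0.0287), and Xdh, xanthine dehydrogenase, 3.94-fold higher in AKI_A_mcherry than in NC (adjusted p = 8.74e-05). Of 19 peroxisome assembly genes, 5 were higher and 1 lower in the FGF23 variant kidneys than in AKI_A_mcherry, beside 11.7% and 11.4% of all genes, with a median of 0.14. Relative to NC, 0 were higher and 15 lower in AKI_A_mcherry, beside 27.2% and 26.0%, with a median of -0.69. Pxmp2, a pore of the peroxisomal membrane, was 2.51-fold higher in the FGF23 variant kidneys than in AKI_A_mcherry (adjusted p = 0.000893) and 6.23-fold lower in AKI_A_mcherry than in NC (adjusted p = 1.11e-07), and Pex6 was 1.30-fold lower in the FGF23 variant group than in AKI_A_mcherry (adjusted p = 0.0362). The S1 and S2 markers had 4 of 8 higher and 0 lower in the first comparison, and 0 higher and 8 lower in the second; their part in these counts was not tested.

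**Figure D5:**
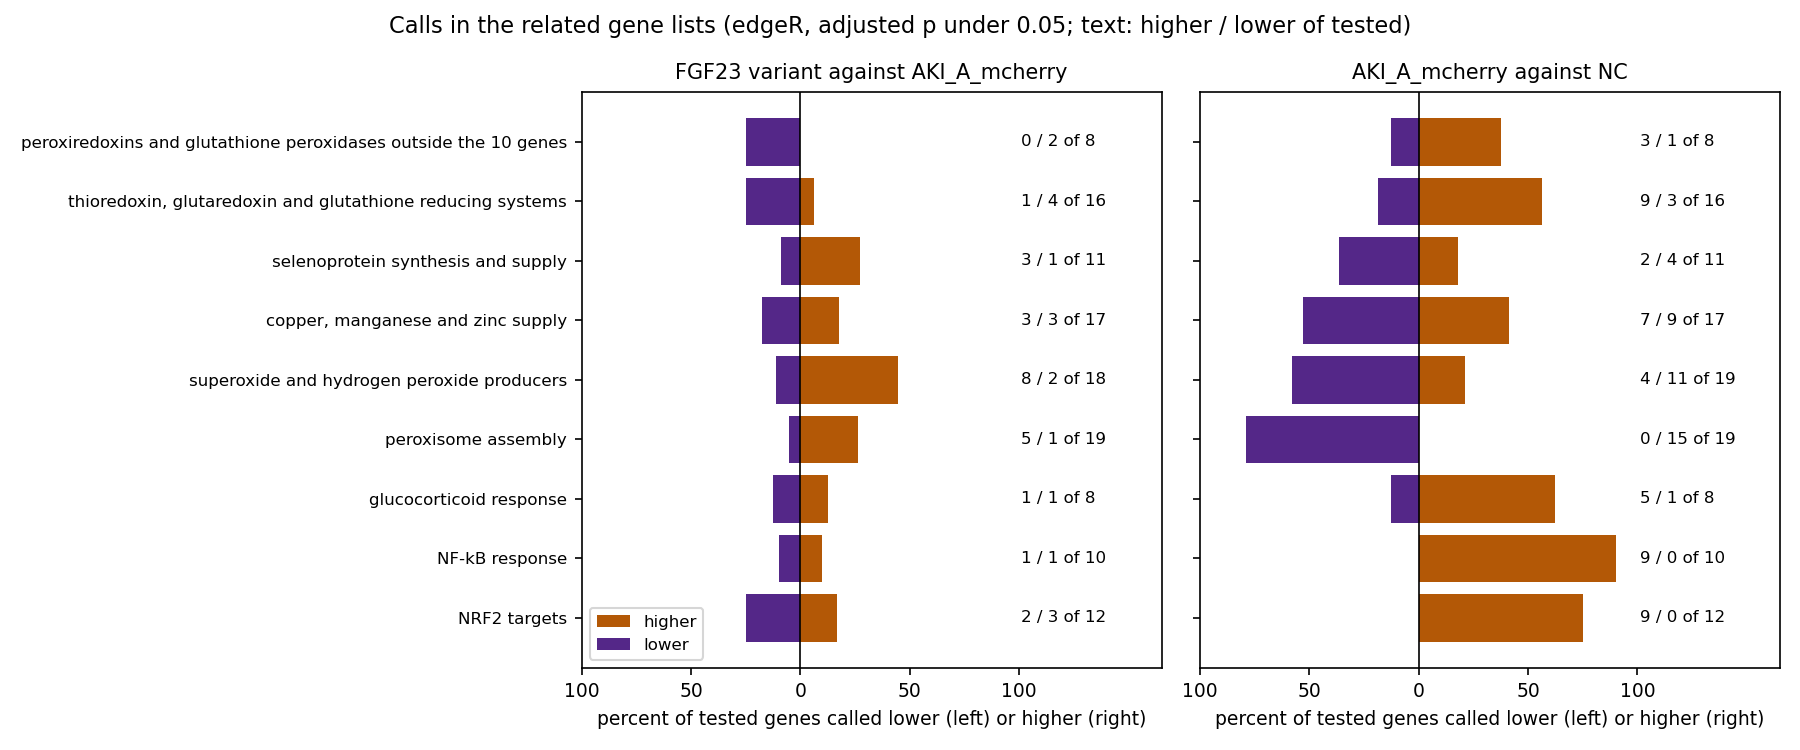
Percent of the tested genes of each related list called higher (right of 0) or lower (left of 0), for the FGF23 variant group against AKI_A_mcherry in the left panel and AKI_A_mcherry against NC in the right; figures beside the bars give the genes higher, lower and tested. Peroxisome assembly has 0 higher and 15 lower of 19 in the right panel and 5 higher and 1 lower in the left.

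The genes whose levels over the 12 libraries lay closest to a member's were found by the root mean square difference of log2(CPM + 1), each centred on its mean, among 11036 genes. Closest to Mt1 was Anxa2, a membrane-binding annexin, at 0.25, and closest to Mt2 was Akr1b8, an aldose reductase-like enzyme, at 0.33, with Spp1, encoding osteopontin, next at 0.41. Mt1 and Mt2 themselves differed by 0.52. Cat lay closest to Aldh7a1, an aldehyde dehydrogenase, at 0.09, Sod2 to Pmpcb, of the mitochondrial processing peptidase, at 0.08, and Gpx1 to Cyba at 0.17. Prdx1 lay closest to Hprt, a purine salvage enzyme, at 0.09. Among the 10 genes, Prdx1 and Prdx6 differed by 0.23 and Cat and Sod2 by 0.23. These distances describe 12 libraries in 3 groups and follow largely from the group means.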

How the data were processed

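Kidney poly(A) RNA was sequenced as strand-marked read pairs, per the labels' protocols. Build GRCm39 and the tools edgeR, StringTie and fastp are listed, without roles, per the submitters' processing notes. No source used here gives the aligner, the annotation or the strand setting. The authors deposited raw counts and FPKM values per gene, per the file headers, one pair for each library, and all 12 library files equalled the series table. A supplied annotation paired 31942 of 32047 gene identifiers with a symbol. Among low counts, 4 occurred 11995 times against 5847 for 3, so counts are not taken as independent molecules.

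For each comparison the 8 libraries of its groups were fitted in edgeR 4.0.16 (R 4.3.3) after filterByExpr and TMM scaling, and the quasi-likelihood test was adjusted by Benjamini and Hochberg over all genes tested (threshold 0.05), and the script was tested on simulated data. Adjusted p-values in the report come from this test unless named otherwise. CPM values, computed here, use TMM factors over all 12 libraries. The deposited FPKM values were used only to compare genes with each other and as a sum per library. Family ratios are log2 of counts plus 0.5. Alternatives were RLE and upper quartile factors, library totals alone, 2 other filters, DESeq2 1.42.0, limma-voom (limma 3.58.1) with quality weights, 1 fit of all 12 libraries, the replicate number as a block, and leaving out each library.

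The 10 genes, the related lists and the tests were chosen with earlier results of these data known. All 10 genes are named; from each list the largest rise and fall past the threshold with a mean of at least 5 CPM are named in the first 2 comparisons, with Ccs, Mtf1, Mt3, Prdx2, Prdx3, Gpx4, Txnrd1, Srxn1 and Selenop; 1 further gene of this rule is not reported here. Gpx2 and Slc7a11 were partly chosen after their values were seen. The promoter window was lengthened, and the aligned length that counts as a near copy raised to 200 bases, after first results were seen. RefSeq sequences are of build GRCm38.p6, and no coordinates of the files were mixed with them. No library was a duplicate: within groups the chi-square of each pair, divided by its degrees of freedom, was 34.1 to 148.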

Additional observations from a re-analysis of the deposited data

Results flagged for a closer look

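Sod2 in FGF23 variant library 1 was at 175 CPM, against 143 to 147 CPM in the other 3 libraries of its group, a gap beyond Dixon's 95% critical value for 4 samples. It was the only one of 30 groups of 4 (10 genes in 3 groups) with such a gap. Chance gives such a gap in about 1 in 20 groups. The 30 groups share libraries and are not independent, so their number cannot decide whether chance gave this one. The same library had the highest Cat, Sod1 and Gpx3 and the lowest Mt1, Mt2 and injured-tubule sum of its group. Without it the log2 fold change of Sod2 in the FGF23 variant group over AKI_A_mcherry was 0.12 (adjusted p = 0.455), against 0.20 with it. Its cause was not tested.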

How the results depend on the processing

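For the FGF23 variant group against AKI_A_mcherry, Gpx1, Mt1 and Mt2 were lower and past the threshold under all 17 alternatives, with log2 fold changes of -0.82 to -0.55, -1.84 to -1.47 and -1.95 to -1.49. The FPKM sum and the mitochondrial share of counts differed between these groups without overlap. No alternative took account of gene length or left out the mitochondrial genes. Prdx1 was lower under all 17, past the threshold in 16, and missed it with the replicate number as a block (log2 -0.54, adjusted p = 0.0692). For AKI_A_mcherry against NC the 9 called genes kept direction and call under all 17, as did 8 of 10 for the FGF23 variant against NC, Sod1 and Gpx3 being the others. Library totals alone moved the median log2 fold change of all genes to 0.21 for the FGF23 variant group over AKI_A_mcherry, 0.12 for AKI_A_mcherry over NC and 0.34 for the FGF23 variant group over NC. They gave 4060 genes higher and 1035 lower in the first comparison (2199 and 2148 with TMM), with 2 of the 10 genes higher (Cat and Sod2) and the signs of Sod1 (0.072), Gpx3 (0.21) and Prdx6 (0.087) turned. In the FGF23 variant group against NC they gave 7829 higher and 2096 lower (4123 and 3912 with TMM). Gpx3 between the injured groups, uncalled throughout, also turned sign with upper quartile factors (0.0018), without a filter (0.0072), at a mean of 5 CPM (0.014), with limma-voom (0.052) and without FGF23 variant library 5 (0.061), AKI_A_mcherry library 1 (0.023) or 2 (0.055), and was lowest without AKI_A_mcherry library 4 (-0.075). Leaving out 1 library gave 1252 to 2088 genes higher and 1158 to 2171 lower in the FGF23 variant group than in AKI_A_mcherry. The fewest came without FGF23 variant library 1, with 1359 lower without library 2, and 1439 higher and 1279 lower without library 5. The Mt1 to Mt2 ratio between the injured groups was -0.030 without FGF23 variant library 1 and at most 0.15 without another. Left-out ratio tests use the unadjusted exact permutation p. The Sod2 to Sod1 difference between the injured groups then ran from 0.21 to 0.39, and the Gpx1 to Gpx3 difference of AKI_A_mcherry from NC from -0.31 to -0.17. Correlations between libraries of the same replicate number were -0.28 to 0.19 over the 3 comparisons. Between the injured groups they were 0.13, 0.08 and 0.19 for numbers 1, 2 and 3, and numbers 1 and 3 matched their own number best. So few numbers cannot decide whether the libraries were paired. A block on the 3 numbers shared with the FGF23 variant group gave 944 higher and 766 lower against AKI_A_mcherry, 2382 higher and 2333 lower against NC, an adjusted p of 0.0532 for Gpx3 against NC, and an Mt1 to Mt2 difference of 0.12 between the injured groups. The causes of these shifts were not tested beyond the fewer libraries of the block and left-out fits.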
